A study of Mus musculus with 26 samples.

Results

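The replication-dependent histone genes encode proteins that package newly made DNA. In the mouse they carry symbols that begin with Hist1h, Hist2h, Hist3h or Hist4h, and the rule here took every gene of the GENCODE vM21 annotation whose symbol did so. It found 70 of the 35865 genes quantified, with 78 transcripts. Of these, 6 encode the linker histone H1, 20 belong to H2A, 19 to H2B, 12 to H3 and 13 to H4. Chromosome 13 holds 56 of them, chromosome 3 holds 10, chromosome 11 holds 3 and chromosome 6 holds 1, and 3 are annotated as pseudogenes.

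RNA was sequenced from TCR_Tg101, CD8+ T cells whose transgenic receptor recognizes an undefined antigen on the murine leukemia line C1498. The labels give the strain as C57BL/6, the genotype as wild type and the age as 6 weeks. The transgenic mice were bred on a Rag2-/- background, so that no other receptor is made, and naive cells labelled with a division dye were transferred into C57BL/6 hosts that received C1498 intravenously on the next day. There were 3 control libraries without leukemia (2 of naive cells at day 0 and 1 from an untreated mouse at day 18), 1 library of undivided cells (CTVhi, which still held the division dye) from leukemia-bearing mice at day 18, and liver libraries of leukemia-bearing mice at an early (day 7, n = 2), mid (days 13 and 14, n = 3) and late (days 16 and 18, n = 2) time point. The spleen gave 2 early libraries (day 7) and 1 mid library (day 14). The labels place the control and undivided cells in spleen, so that tissue and leukemia cannot be told apart in any liver comparison with the controls. One further day 0 library was made by oligo-dT priming, under the same title as control replicate 1, whereas the other 14 were low-input libraries whose priming is not given in the sources used here. Titles carry the prefix TG or XC, which was taken as the series in which a library was sequenced. Control replicate 1, mid replicate 1, late replicate 1 and the oligo-dT library were of the TG series and all others were of the XC series. The labels do not say which libraries came from separate mice, so p-values measure the spread between these libraries, which may be technical. In bulk RNA, fewer cells that express a gene and less RNA per cell cannot be told apart.

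Depth ranged from 22918996 to 71358287 estimated counts per low-input library and was 23189213 in the oligo-dT library. Markers of CD8 T cells (Cd8a, Cd8b1, Cd3d, Cd3e, Cd3g and Trac) summed to 3469 to 8451 CPM (counts relative to the library total after TMM scaling) in the low-input libraries, and Cd4 stayed at or below 5.27 CPM. The 6 hepatocyte markers summed to at most 1.79 CPM in the spleen libraries, to 1.80 and 7.43 in the early liver and to between 2.61 and 287.4 in the mid and late liver. The 5 erythroid markers summed to 134.6 to 19915 CPM in the controls and to 5.47 to 211.9 in the mid and late liver, and the 6 myeloid markers to 8.27 to 372.1 and to 3.42 to 28.0. None of the markers above was at 0 in every library. Ighm, an immunoglobulin heavy chain gene used as a B cell marker, was at 338.1 to 775.0 CPM in the low-input libraries.

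Histone proteins are needed in bulk when a cell copies its DNA, and replication-dependent histone genes are typically switched on in S phase and shut off after it. Most have no intron, and their mRNA normally ends just after a short stem-loop in place of a poly(A) tail. The stem-loop is bound by SLBP, which accompanies the mRNA from processing to translation and decay. Some of these genes can also give longer polyadenylated mRNA, in particular in cells that no longer divide. Replication-independent variants such as H2A.Z and H3.3 come from other genes, have introns and poly(A) tails, and are made throughout the cell cycle.

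The stem-loop is the sequence that sets these mRNAs apart, so the forms found among the members are shown first. The search took the annotated transcripts in the GRCm38 genome for 6 paired bases that begin with GG, a loop of 4 bases that starts with TT, and the complement that ends with CC. Capitals mark the stem-loop, lower case the bases on either side (5 where the transcript holds them), and sequences run 5′ to 3′ with T for U.
Hist1h2ap (chr13:21833026-21833049, minus strand): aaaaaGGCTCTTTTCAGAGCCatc
Hist1h2ae (chr13:23570663-23570688, minus strand): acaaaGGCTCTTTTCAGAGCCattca
Hist1h2bk (chr13:22036295-22036320, plus strand): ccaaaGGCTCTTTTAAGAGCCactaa
Hist2h2ac (chr3:96220413-96220438, minus strand): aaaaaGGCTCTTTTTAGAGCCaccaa
Hist1h4d (chr13:23581945-23581970, plus strand): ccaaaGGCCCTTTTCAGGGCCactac
Hist1h4b (chr13:23757361-23757386, plus strand): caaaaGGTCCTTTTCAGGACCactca
Hist3h2a (chr11:58955167-58955192, plus strand): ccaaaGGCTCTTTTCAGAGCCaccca
The form of Hist1h2ap was found in 26 members and that of Hist1h4d in 7, and the latter occurred only among the H4 genes. The form of Hist1h2bk was found in 6 members, those of Hist1h4b and Hist1h4i in 2 each and that of Hist2h2ac in 1. In 22 members the annotated transcript ended within 100 bases of the stem-loop, as in Hist1h2ap with 3 bases and Hist1h2bk with 30 bases after it. In 22 others the transcript ran further, as in Hist1h2ae (151 bases after it), Hist1h4d (770) and Hist3h2a (1643). In 26 none was found, among them Hist1h2ai with a model of 393 bases. Over all genes, 29 of 35865 (0.0809%) held this pattern within the last 100 bases, and 22 of the 29 were members. The poly(A) signal AATAAA was sought in the last 50 bases of every transcript of a gene. It stood in 1 member that ends at the stem-loop, 10 that run past it and 4 with none. In that 1 member, Hist1h2bp, and in Hist1h2be, only a form without the stem-loop carried it.

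Promoters of the members are described next, and their motifs were not tested against the change in the liver. RefSeq promoters (GRCm38.p6, 250 bases before to 50 after the start) matched 61 members. CCAAT on either strand was present in 52 of them, against 37.9% of all promoters of this length. It was in every matched H1, H2A, H2B and H3 promoter (6, 17, 16 and 10) and in 3 of 12 H4 promoters. TATAAA was in 57.4% of the members and 14.2% of all promoters, and GGGCGG in 37.7% and 35.9%. The octamer ATTTGCAT was in 13 members (21.3%), 7 of H2A and 6 of H2B, and in 1.75% of all promoters. The 250 bases before the start of an H1, an H2B and an H4 member are given with these motifs in capitals, on both strands. A match of letters is a description and shows no binding.
Hist1h1b (chr13:21780626-21780875, minus strand): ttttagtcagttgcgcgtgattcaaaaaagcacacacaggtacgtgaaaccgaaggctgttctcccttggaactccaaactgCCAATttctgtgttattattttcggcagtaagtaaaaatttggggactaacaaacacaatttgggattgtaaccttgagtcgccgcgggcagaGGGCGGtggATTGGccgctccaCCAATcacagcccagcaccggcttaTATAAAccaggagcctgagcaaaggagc
Hist1h2bk (chr13:22035571-22035820, plus strand): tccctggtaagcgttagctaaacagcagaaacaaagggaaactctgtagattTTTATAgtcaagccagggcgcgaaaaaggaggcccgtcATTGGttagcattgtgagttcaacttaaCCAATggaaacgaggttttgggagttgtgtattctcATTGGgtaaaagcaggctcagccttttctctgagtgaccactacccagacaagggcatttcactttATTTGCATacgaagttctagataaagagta
Hist1h4d (chr13:23581318-23581567, plus strand): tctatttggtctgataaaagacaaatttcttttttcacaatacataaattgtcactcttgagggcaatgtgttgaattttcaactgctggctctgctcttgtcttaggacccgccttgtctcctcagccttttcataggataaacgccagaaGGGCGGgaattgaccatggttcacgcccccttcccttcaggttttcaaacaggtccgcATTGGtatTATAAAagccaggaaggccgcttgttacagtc

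Copies of these genes share sequence, and kallisto divides reads among transcripts that share them. The median member had 55.8% of its 31-base words in another gene, and 40 of 70 members shared most of theirs. By class the median was 3.78% in H1, 80.8% in H2A, 50.6% in H2B, 61.0% in H3 and 47.9% in H4. As a class H1 thus shared least, but single genes varied. Hist1h1e shared 34.7%, while Hist2h2be of H2B shared 2.82%. Hist1h2ap shared 93.4% of its words and Hist2h2aa2 shared 100%, and Hist1h1t alone shared none. Words were shared with genes outside the set in 51 members, as in Hist1h2ap with 43.6%, Hist1h2ai with 53.4% and Hist3h2a with 32.1%. Reads can therefore also pass between a class and genes outside the set. The short transcripts of Hist1h2bq and Hist1h2br, both 381 bases, received the same estimated count in each library, as in control replicate 1 with 123.4 each and late replicate 1 with 362.6 each. A level of one H2A, H2B, H3 or H4 gene, or of Hist1h1e, is therefore less certain than the sum of its class. The tests do not include this error.

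Histone mRNA was low in control cells and high in the liver at the mid and late time points. All 70 members summed to 437.8, 292.9 and 251.7 CPM in the controls (327.5 ± 97.7, SD, n = 3). In the undivided library they summed to 329.1 CPM, within the range of the controls. In the early spleen the sum was 262.2 and 233.6 CPM, and in the mid spleen it was 660.5. The early liver libraries were unlike each other, at 690.2 and 352.9 CPM. In the mid liver the sum was 4632, 1001 and 2124 CPM, and in the late liver 5265 and 3102 CPM, so that each of these 5 libraries lay above all other low-input libraries. The mean of the 5 was 3225 CPM (SD 1755), which was 9.85 times that of the controls. This ratio was 7.62 within the XC series (3 libraries against 2) and 11.3 within the TG series (2 against 1).

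The order of the libraries from the lowest sum was early spleen 2, control 3, early spleen 1, control 2, undivided, early liver 2, control 1, mid spleen, early liver 1, mid liver 2 and 3, late liver 2, mid liver 1 and late liver 1. Early spleen 1, undivided and early liver 2 lay within the range of the controls, and early spleen 2 lay below it. The mid spleen library and early liver 1 lay next to each other, above every control and below every mid and late liver library. Mid and late overlapped, with mid liver 1 of the TG series above late liver 2 of the XC series.

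**Figure D1:**
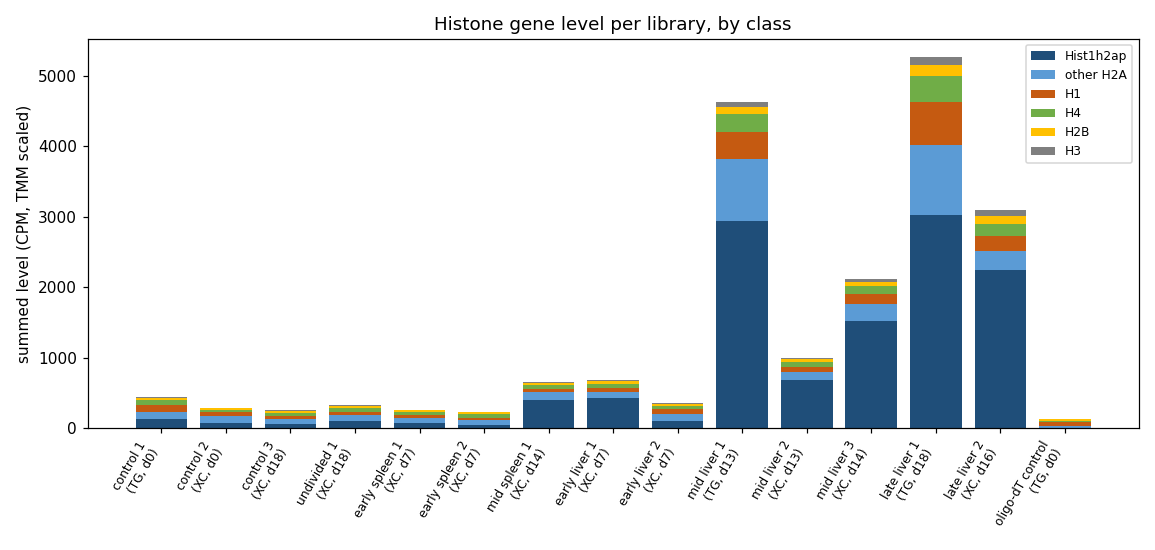
Summed level of the 70 histone genes in each of the 15 libraries (CPM scaled by TMM, linear axis), stacked by class with Hist1h2ap apart from the other H2A genes, with series and day in brackets. The 5 mid and late liver libraries stand at 1001 to 5265 CPM and the 3 controls at 251.7 to 437.8.

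One H2A gene held most of this RNA. Hist1h2ap (ENSMUSG00000094777.2, chr13:21833026-21833507), which encodes a core histone H2A, was at 124.8, 80.0 and 60.6 CPM in the controls. It was at 2936, 677.2 and 1522 CPM in the mid liver and at 3032 and 2241 in the late liver, with no overlap with the controls. Mid spleen and early liver replicate 1 held 406.2 and 431.8 CPM, whereas the undivided library (99.3), early liver replicate 2 (106.2) and the early spleen (80.4 and 43.4) lay near the controls. From 24.1% to 28.5% of all member counts in the controls belonged to Hist1h2ap, and from 57.6% to 72.2% in the mid and late liver. Its log2 fold change in mid and late liver against control was 4.47 (SE 0.58, adjusted p = 0.00536, edgeR quasi-likelihood, adjusted by Benjamini-Hochberg over 14600 genes). Per length it was also the highest, with a mean deposited TPM (a length-corrected share of transcripts) of 1911 over the 14 low-input libraries, against 133.9 for Hist1h2ae, the next H2A gene, and 37.3 for Hist1h4d, the highest of H4. Its near copy Hist1h2ao, which shares 93.8% of its words with other genes, was at or below 2.09 CPM in each low-input library, and how the reads of such a pair were divided rests on few bases. Without Hist1h2ap the other 69 members summed to 239.0 ± 65.0 CPM in the 3 controls (SD). In the 5 mid and late libraries they summed to 1143 ± 796.3 CPM (SD).

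The ratio of the mid and late mean to the control mean differed by class, and is given without a test. For H2A the mean was 181.1 CPM in the controls and 2586 in mid and late liver, 14.3-fold, and 5.44-fold without Hist1h2ap. The ratio was 6.29 for H3 (10.9 to 68.7 CPM), 4.49 for H1 (63.3 to 284.5), 4.14 for H4 (47.2 to 195.1) and 3.65 for H2B (24.9 to 90.9). These ratios depended on the series. H2A without Hist1h2ap had 2.51 in the XC series, the lowest there, and 8.64 in the TG series. H1 had 3.13 and 5.05, H4 had 3.03 and 4.81, H3 had 5.10 and 8.01, and H2B had 3.04 and 4.22 in the XC and TG series. Per length (TPM) the order of the lower classes changed, with 3.83 for H2B, 3.56 for H1 and 2.48 for H4.

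Of the 70 members, 63 passed the filter of 10 counts in at least 6 of the 11 control, undivided and liver libraries. The 7 that did not (Hist1h1t, Hist1h2aa, Hist1h2al, Hist1h2ao, Hist1h2ba, Hist1h4a and Hist2h2ab) reached at most 96.9 counts in any low-input library. Among the 63, 4 had under 10 counts in every control, so that they could pass only through other groups. These were Hist1h2bk, Hist1h3c, Hist1h3g and Hist1h4f. In mid and late liver against control, 39 members rose and 2 fell at an adjusted p under 0.05, where 23.5% of all 14600 genes tested rose and 23.8% fell. The median log2 fold change was 2.46 over the tested members and −0.05 over all genes. All 4 members named above are among the 39 and in this median, and their calls are no separate support. In mid liver alone 31 rose and 3 fell (17.3% and 13.9% of all genes), and in late liver alone 42 rose and 0 fell (19.8% and 17.7%). In late liver 1 member was lower at an unadjusted p under 0.05, and DESeq2 called 44 higher and 0 lower. By level, 34 members lay above every control in all 5 mid and late libraries without overlap, as did 19.8% of all genes, and 2 lay below every control, as did 18.0%.

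These calls depended on single libraries. Without control replicate 1, the only control of the TG series, 0 of 59 members passed in mid and late liver by edgeR, with a smallest adjusted p of 0.0502, and 6 of all 14170 genes passed. The values themselves moved less, with 48 of 59 members still higher and a median log2 fold change of 2.14. DESeq2 on the same libraries called 35 of 59, and 27.6% of all genes. In mid liver alone, 0 members passed by edgeR without control replicate 1, control replicate 2, mid replicate 1 or mid replicate 3, and 1, 1, 0 and 0 of all genes passed in these fits. In late liver alone, 5 members and 148 of all genes passed without control replicate 1, and 0 members and 0 genes without either late replicate.

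**Figure D2:**
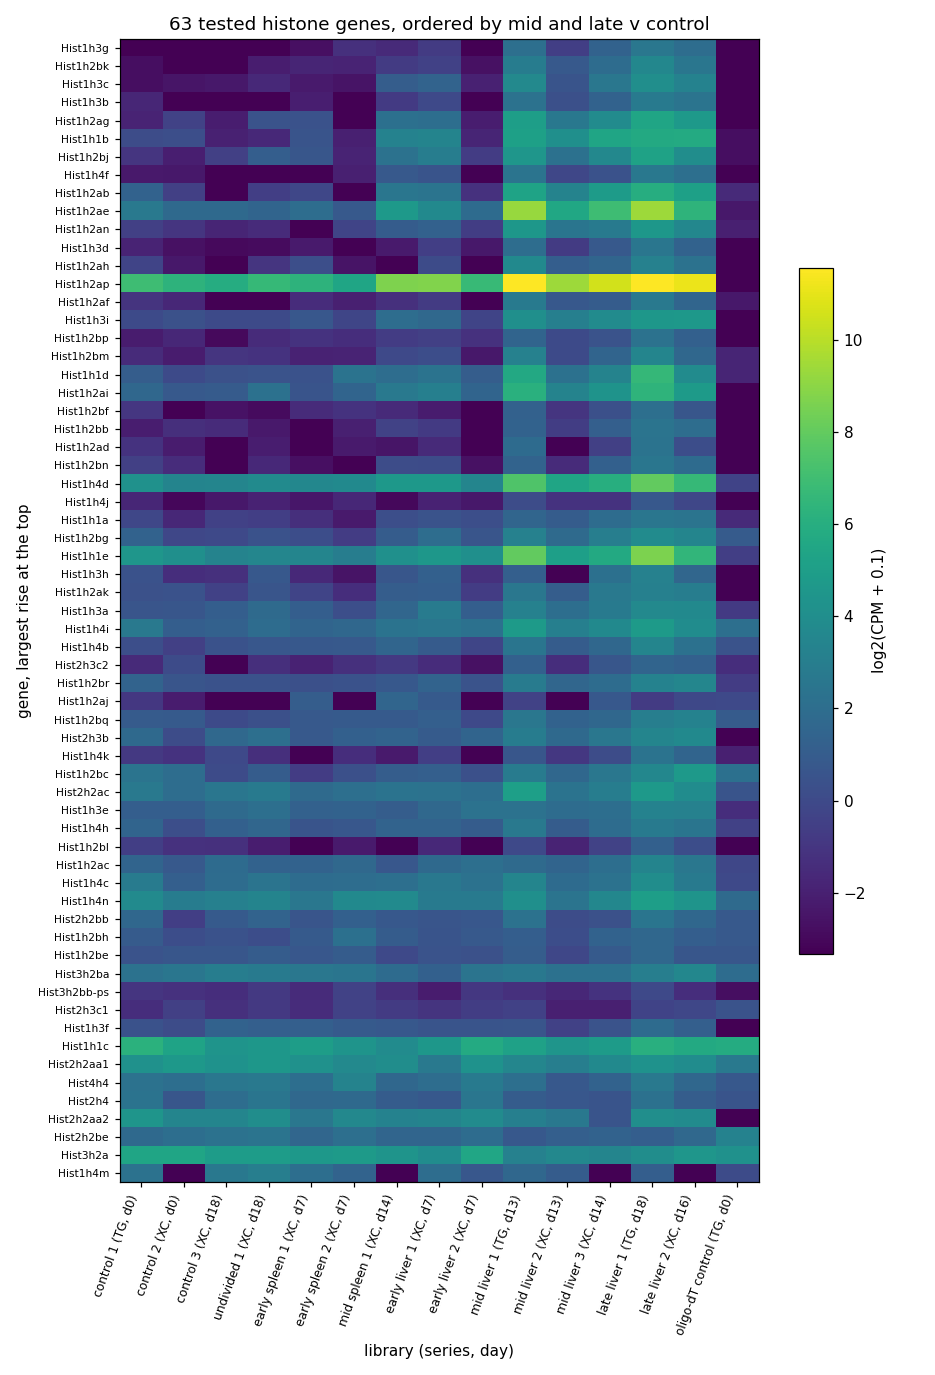
Level of the 63 tested histone genes, as log2(CPM + 0.1), in the 15 libraries, ordered by the log2 fold change in mid and late liver against control. Most of the upper rows are dark in the controls and bright in the 5 mid and late liver libraries, and the lowest rows, among them Hist3h2a and Hist2h2be, are not.

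The linker histone H1 binds the DNA between nucleosomes, and 4 of the 5 tested H1 genes rose. Hist1h1b (ENSMUSG00000058773.2, chr13:21779883-21780625) was at 1.005, 1.10 and 0.16 CPM in the controls. It was at 35.1, 16.9 and 42.6 CPM in the mid liver and at 52.5 and 54.8 in the late liver. The log2 fold change was 5.69 (SE 1.27, adjusted p = 0.0116 by edgeR), and early liver replicates 1 and 2 lay apart at 10.4 and 0.19 CPM. Hist1h1e, which shares 34.7% of its words, was at 22.9, 17.2 and 10.1 CPM in the controls. It was at 253.5, 33.5 and 53.0 CPM in the mid liver and at 388.8 and 87.6 in the late liver. All 5 lay above the controls, with a log2 fold change of 2.65 (SE 0.41, adjusted p = 0.00616 by edgeR). Hist1h1c was the exception, at 71.5, 39.2 and 21.0 CPM in the controls and 36.1, 21.3, 29.2, 68.4 and 52.3 in mid and late liver. These ranges overlapped, and its log2 fold change of −0.06 (SE 0.34) had an adjusted p of 0.887 by edgeR and a sign that turned when single libraries were left out.

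Among the H2A genes, 10 of 16 tested rose and 1 fell. Hist1h2ae (chr13:23570517-23571220) was at 6.44, 3.29 and 3.32 CPM in the controls. It was at 626.4, 46.4 and 123.9 CPM in the mid liver and at 656.7 and 81.6 in the late liver. Its log2 fold change was 5.29 (SE 0.74, adjusted p = 0.00613 by edgeR), and the values of the TG series lay far above those of the XC series. Hist1h2ag and Hist1h2ab, also H2A genes, were at or below 0.66 and 2.48 CPM in the controls and at 6.23 to 43.2 and 10.1 to 62.9 CPM in mid and late liver. Hist1h2ai, which shares 92.0% of its words, went from 1.72 to 3.10 CPM in the controls to 9.83 to 83.7.

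Of the H2B genes tested, 10 of 18 rose and 1 fell. Hist1h2bk was at 0.04, 0 and 0 CPM in the controls, at 7.60, 1.69 and 3.70 in the mid liver and at 11.8 and 5.74 in the late liver. Hist1h2bj was at 0.38, 0.14 and 0.61 CPM in the controls and at 4.64 to 38.8 in mid and late liver, and the undivided library held 2.10. Hist1h2br, which shares 89.5% of its words, was at 1.22 to 2.54 CPM in controls and 2.95 to 11.4 in mid and late liver. Hist3h2ba, on chromosome 11, was at 4.76, 5.74 and 7.76 CPM in the controls and 6.05, 4.64, 4.64, 8.05 and 11.8 in mid and late liver, with an adjusted p of 0.592 by edgeR.

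All 12 H3 genes were tested, of which 8 rose and 0 fell in mid and late liver, and none of the 12 had a negative fold change. Hist1h3i was at 0.90, 1.22 and 0.90 CPM in the controls and at 16.7, 8.60, 14.7, 23.1 and 24.0 in mid and late liver. Hist1h3c was at or below 0.10 CPM in the controls and at 1.33 to 16.5 in mid and late liver, and Hist1h3b at or below 0.21 and at 1.15 to 6.58. Hist1h3g had 0 counts in the controls and 0.58 to 5.89 CPM in mid and late liver. This was at least 173-fold higher when 3 counts over the control group were taken as the floor. Hist1h3g shares 60.2% of its words, and this bound covers counting only. The fitted value of Hist1h3g and this bound both lie above the member median of 2.46, so the choice between them cannot move it. Hist2h3b of the HIST2 locus rose less, from 1.01 to 3.25 CPM in controls to 3.35 to 13.6 (log2 fold change 1.73, SE 0.45, adjusted p = 0.0152 by edgeR).

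Among the H4 genes 7 of 12 rose and none passed in the other direction. Hist1h4d (chr13:23581598-23582735) was at 18.7, 10.3 and 10.9 CPM in the controls, at 173.9, 42.6 and 63.5 in the mid liver and at 251.0 and 101.8 in the late liver. All 5 liver values lay above the controls, and the log2 fold change was 2.99 (SE 0.33, adjusted p = 0.00510 by edgeR). Hist1h4f was at or below 0.10 CPM in the controls and at 0.79 to 6.17 in mid and late liver. Hist1h4n was high per length but overlapped between groups, at 13.6, 7.40 and 8.76 CPM in controls and 5.15 to 32.5 in mid and late liver (adjusted p = 0.0631 by edgeR). Hist1h4m was listed at 0 in control replicate 2, the mid spleen and 2 of the 5 mid and late libraries, and shares 91.7% of its words.

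The 2 members that fell lie outside the HIST1 locus. Hist3h2a (ENSMUSG00000078851.4, chr11:58954685-58956830), an H2A gene, was at 42.9, 42.9 and 30.2 CPM in the controls. It was at 9.25, 12.45 and 10.95 CPM in the mid liver and at 15.4 and 22.3 in the late liver, below every control. The log2 fold change was −1.46 (SE 0.33, adjusted p = 0.0104 by edgeR). Early liver replicate 1 held 14.98 CPM and replicate 2 held 45.0. Hist3h2a shares 32.1% of its words with Trim17, a gene outside the set, so its level is less certain. Hist2h2be, an H2B gene on chromosome 3, was at 3.28, 4.12 and 4.70 CPM in the controls and at 1.63, 2.16, 2.46, 2.11 and 3.21 in mid and late liver, with a log2 fold change of −0.77 (SE 0.26, adjusted p = 0.0383 by edgeR). The transcripts of both carry AATAAA in their last 50 bases. Hist2h2aa1, Hist2h2aa2, Hist2h4 and Hist4h4 had log2 fold changes from −0.73 to −0.64 that did not pass, and Hist1h4m one of −2.28 (SE 1.76) that did not. By locus, 37 of 50 tested HIST1 genes rose and 0 fell, against 2 of 9 up and 1 down in HIST2, 1 of 3 down in HIST3 and no call for the single HIST4 gene. The 4 tested members with under 10 counts in every control are all HIST1 genes. The difference between loci was not tested.

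**Figure D3:**
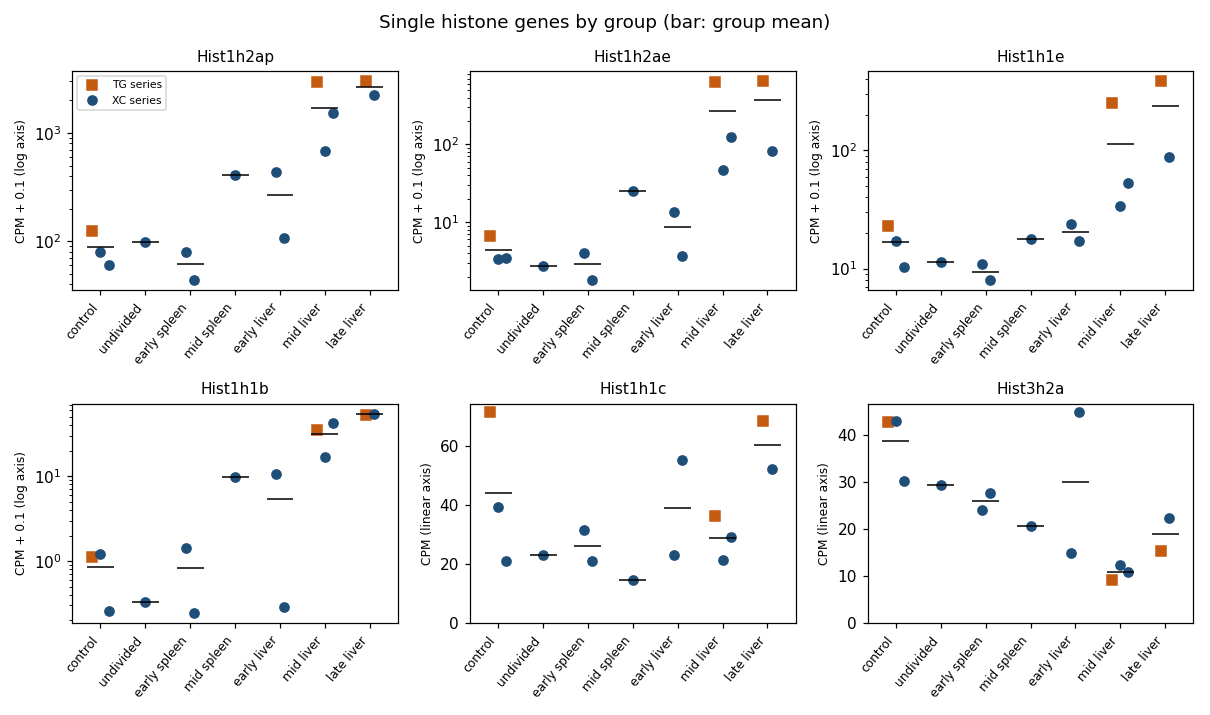
Level of 6 histone genes (CPM) in each low-input library by group, with squares for the TG and circles for the XC series and a bar at the group mean. Hist1h2ap, Hist1h2ae, Hist1h1e and Hist1h1b, on log axes, lie above the controls in mid and late liver, Hist1h1c overlaps and Hist3h2a lies below, both on linear axes from 0.

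The annotated transcript end went with the size of the change. Members that end at the stem-loop had a median log2 fold change of 3.81, and 16 of 21 tested rose and 0 fell. Those that run past it had a median of 0.94 with 10 of 21 up and 1 down (Hist3h2a), and those without a stem-loop in their model 2.55 with 13 of 21 up and 1 down (Hist2h2be). Members with AATAAA in the last 50 bases had a median of 0.23 with 5 of 13 up and 2 down, and the others 2.72 with 34 of 50 up and 0 down. These are descriptions of the same 63 tests, and members that share words are not independent of each other. Hist1h2bk, Hist1h3c and Hist1h4f, which end at the stem-loop, and Hist1h3g, without one, had under 10 counts in every control. None of them has AATAAA in the last 50 bases. They could pass the filter only through other groups, so they raise these counts and medians and are no separate support. Hist1h2ae, with AATAAA in its longer model and 5.29, and Hist1h1d, whose model runs 4884 bases past the stem-loop and 3.90, show that the groups overlapped.

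**Figure D4:**
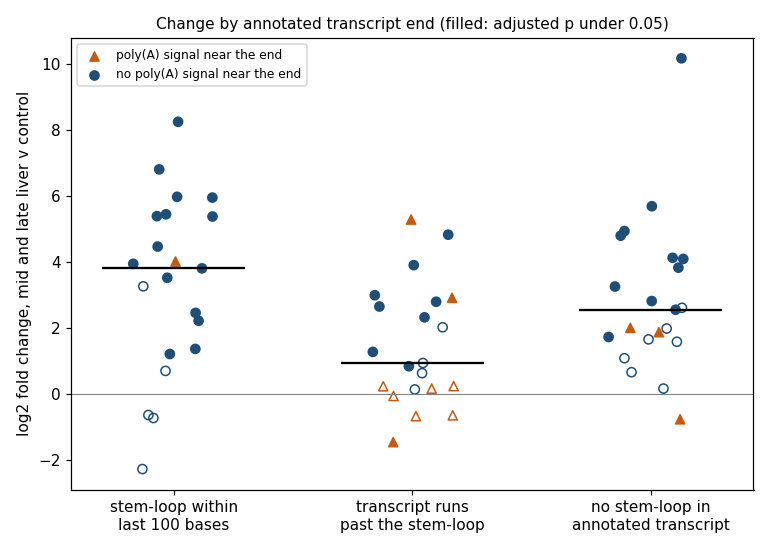
Log2 fold change of the 63 tested histone genes in mid and late liver against control, by the annotated end of the transcript, with a bar at the median (3.81, 0.94 and 2.55), filled symbols for an adjusted p under 0.05 and triangles for a poly(A) signal in the last 50 bases. The highest point, Hist1h3g, had 0 control counts, so that its fitted value is no bound.

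At day 7, 0 of 63 members and 0 of all 14600 genes passed in liver against control by edgeR. At an unadjusted p under 0.05, 17 members were higher and 0 lower, where 1493 of all genes passed in either direction, and the median log2 fold change was 0.86 over the members and −0.01 over all genes. DESeq2 called 8 members, all higher, and 2.40% of all genes. By level, 5 members lay above every control in both libraries, where 10.0% of all genes did. The replicates differed, with Hist1h1b, Hist1h2bk and Hist1h3c at 10.4, 0.64 and 2.59 CPM in replicate 1 and 0.19, 0.06 and 0.16 in replicate 2. Without early liver replicate 2, 19 members were called higher and 2 lower by edgeR, as were 13.2% of all 14363 genes in either direction, and without replicate 1 the count was 0 members and 1 gene. These fits leave 1 early liver library, which is assumed to vary like the other groups.

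Between late and mid liver 0 members passed by edgeR, and 10 were higher and 0 lower at an unadjusted p under 0.05 (780 of all 14600 genes passed in either direction at that level, and 0 after adjustment). DESeq2 called 0 members and 32 of all genes. The fold change was positive in 61 of 63 members, with a median log2 of 0.88, and in 51.7% of all genes, with a median of 0.01. By level, 26 members lay higher in both late than in all 3 mid libraries, where 7.81% of all genes did. Hist1h1b was at 16.9 to 42.6 CPM in mid and at 52.5 and 54.8 in late, whereas Hist1h2ap had a log2 difference of 0.62 (SE 0.57).

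The undivided library could be tested only through the spread of the other groups. Of 63 members 0 passed (smallest adjusted p = 1 by edgeR, 1 member higher and 182 of all genes at an unadjusted p under 0.05, 0 of both by DESeq2), and the median log2 fold change was 0.44. Hist1h2ap had 0.52 (SE 0.73) there. In the early spleen 0 of 64 members passed by edgeR or DESeq2 (4 higher and 1 lower at an unadjusted p under 0.05, as were 970 of all 15449 genes in either direction), with a median of 0.22. Between early liver and early spleen 0 of 64 members passed by edgeR, with a median of 0.56. At an unadjusted p under 0.05, 8 members were higher in liver and 1391 of all genes passed, and DESeq2 called 1 member and 59 genes. Between mid liver and the single mid spleen library 0 of 64 members passed by edgeR, with a median of 1.15 over the members and 0.01 over all genes. At an unadjusted p under 0.05, 8 members were higher in liver and 897 of all genes passed, and DESeq2 called 1 member and 17 genes. In the mid spleen Hist1h2ap lay above every control, while the other 69 members summed to 254.3 CPM, against 191.1 to 313.0 in the controls. Single genes among these 69 went both ways. Hist1h2ae (25.0 CPM), Hist1h1b (9.74) and Hist1h4d (24.9) also lay above every control there. Hist1h1c (14.6) and Hist3h2a (20.7) lay below every control.

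Within the mid and late time points, several members were higher in the TG than in the XC series. In 65 members with enough counts, the ratio of late liver replicate 1 (TG, day 18) to replicate 2 (XC, day 16) had a median of 1.72, against 0.98 for all genes, and 23 were over 2-fold higher, as were 13.5% of all genes compared. In mid liver the median was 2.23, against 0.97 for all genes. Hist1h2ae had a ratio of 8.05, Hist1h1d 6.63 and Hist1h1e 4.44, and the same genes had 7.36, 7.11 and 5.86 in mid liver. Hist1h1b was alike in both late libraries at 52.5 and 54.8 CPM. At day 0 the ratio of the TG to the XC control was 1.96 for Hist1h2ae, 2.16 for Hist1h1d and 1.33 for Hist1h1e. Day and series changed together in the late pair and cannot be told apart. Hepatocyte markers were also higher in the TG libraries (174.8 and 287.4 CPM, against 2.61 to 65.3), and their part in this was not tested. The 2 runs of mid liver replicate 1 also differed, with 0.314% and 0.441% of their counts in members.

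Oligo-dT priming starts at a poly(A) tail, while the priming of the low-input library of the day 0 pair is not known here. All members summed to 132.3 CPM there and to 437.8 in the low-input library of the same title, without replicates. Hist1h2ap had 0 counts by oligo-dT and 8447 in the low-input library, at least 851-fold lower against a floor of 3 counts. This bound covers counting only, because Hist1h2ap shares 93.4% of its words with other genes, to which its reads can pass. Hist2h2aa2 had 0 and 1486 counts (at least 149.7-fold), although its reads can pass to Hist2h2aa1, which had 6.40 CPM by oligo-dT and 18.7 in the low-input library. Hist1h1e was at 0.59 and 22.9 CPM, Hist1h4d at 0.68 and 18.7, Hist1h4c at 0.88 and 7.11, Hist1h4m at 0.98 and 4.77 and Hist2h2ac at 1.37 and 6.34. These 5 had the largest falls among the 27 members with at least 10 counts in both libraries, from −5.17 to −2.17 on the log2 scale.

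Other members differed less between the libraries or were higher by oligo-dT. Hist1h1c was at 57.4 CPM by oligo-dT and 71.5 in the low-input library. Hist2h2be was at 9.68 against 3.28 CPM and Hist2h3c1 at 1.32 against 0.28, the 2 members that were over 2-fold higher on the log2 scale with a prior count of 2. Hist1h2aj (0.88 and 0.43 CPM), Hist1h4b (1.32 and 1.08) and Hist1h2be (1.47 and 1.30) followed. Hist2h2be, Hist2h3c1, Hist1h2be and Hist1h1c have AATAAA in the last 50 bases of a transcript, and Hist1h2aj and Hist1h4b do not. Members with AATAAA were also among those that were lower by oligo-dT. Hist1h2ae was at 0.10 CPM by oligo-dT and 6.44 in the low-input library, Hist2h4 at 1.37 and 5.04, Hist4h4 at 1.61 and 4.83 and Hist3h2a at 18.6 and 42.9.

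Of 58 members with at least 10 counts in the low-input library, 43 were at least 2-fold lower by oligo-dT, against 19.5% of all 17012 such genes. Members that end at the stem-loop were so in 14 of 16 (median −2.15), those that run past it in 13 of 21 (−1.72) and those without one in 16 of 21 (−2.14). With AATAAA it was 7 of 13 (−1.20), and without it 36 of 45 (−2.17). Under 10 counts by oligo-dT were left for 31 of the 58 (53.4%, against 21.2% of all such genes). The low-input library was the deeper, with 65615912 counts against 23189213. Over the 27 members with 10 counts in both, the median was −1.20 and that of all such genes 0.09, but against the other day 0 low-input library it was −0.13. That library held 292.9 CPM of histone mRNA, less than the 437.8 of control replicate 1.

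**Figure D5:**
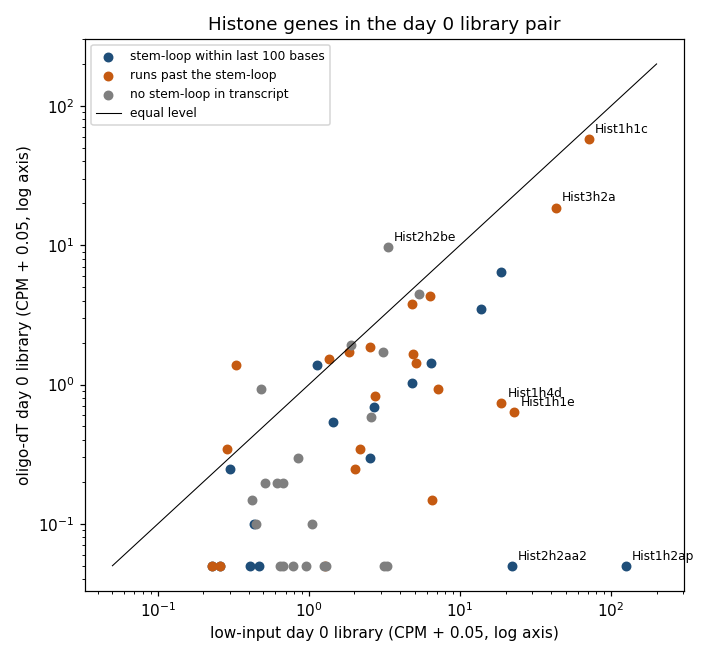
Level of the 58 histone genes with at least 10 counts in the low-input library of the day 0 pair (x axis, CPM + 0.05) and in the oligo-dT library (y axis), both axes logarithmic, by annotated transcript end, with the line of equal level. Hist1h2ap lies at the lower right (124.8 and 0 CPM), Hist1h1c near the line and Hist2h2be above it.

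Among genes with several transcripts, the short forms of Hist1h2bq and Hist1h2br both fell to 0 by oligo-dT, and the longer forms did not move alike. Counts here are not scaled for depth, which was lower by oligo-dT. Hist1h2bq had 123.4 counts in its 381-base form in control replicate 1 and 0 by oligo-dT, whereas its longer forms of 2015 and 1254 bases had 1.43 and 0 counts in the former and 16.4 and 22.05 by oligo-dT. The 381-base form of Hist1h2br had the same counts as that of Hist1h2bq, 123.4 in control replicate 1 and 0 by oligo-dT. The 1256-base form of Hist1h2br had 27.9 counts in control replicate 1 and 3.23 by oligo-dT, and its 2197-base form 21.1 and 8.14. Both forms of Hist1h2bp had 0 by oligo-dT. The 2480-base and 2099-base forms of Hist1h2be had 43.4 and 44.4 counts in control replicate 1 and 16.6 and 13.2 by oligo-dT. In late liver the 381-base form of Hist1h2bq held 362.6 and 330.3 counts and the 2015-base form 20.8 and 7.91. The 469-base form of Hist1h2bp, which ends at the stem-loop, had 0.55 to 11.2 counts in the controls and 174.3 and 48.2 in late liver, and its 621-base form had 0 in the controls and 51.5 and 31.4 in late liver. Kallisto assigns these by few distinguishing reads, and no test was made. A list of other RNAs without a poly(A) tail had 0 genes among those quantified, so none could be set beside the members.

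The genes that serve histones moved with them in part. In mid and late liver against control, 23.5% of all 14600 genes tested rose and 23.8% fell. For histone mRNA processing, 8 of 14 genes rose and 0 fell in mid and late liver, among them Slbp, whose protein binds the stem-loop. Slbp was at 122.3, 129.3 and 124.7 CPM in the controls and at 264.6, 193.7, 336.0, 314.6 and 268.0 in mid and late liver, with a log2 fold change of 1.12 (SE 0.22, adjusted p = 0.00738 by edgeR). Eri1, a nuclease that trims the stem-loop end, had 0.58, and Lsm10 of the U7 particle 0.65, and both passed. Npat and Casp8ap2, which organize histone loci in the nucleus, did not pass, with −0.18 and −0.17. Of 10 histone chaperones, 7 rose and 0 fell. Asf1b, which hands H3 and H4 to assembly factors, was at 7.24 to 15.9 CPM in controls and 52.5 to 296.7 in mid and late liver (3.79 on the log2 scale), and Chaf1a and Chaf1b of the replication-coupled assembly factor had 4.34 and 2.01. Hira, Daxx and Atrx, which deposit H3.3 outside replication, had 0.11, −0.30 and −0.52 and did not pass. From a list of histone genes outside the member rule, 5 of 9 tested rose, with H2afx at 2.54, Cenpa at 2.20 and H2afz at 2.11. H3f3a and H3f3b had 0.37 and 0.41 and did not pass. Of 19 S phase genes, 18 rose, and their median log2 fold change was 2.58.

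Over the 14 low-input libraries, the genes whose log2 CPM followed the summed histone level most closely were given by Pearson's r among 15385 other tested genes, as a description over libraries that share groups, series and depth. Cenpl, a centromere protein, had 0.992, followed by Fdxr (0.989), Aurka (0.988), Ccne1 (0.988), Gm21596 (0.988), Dut (0.988), Paqr4 (0.987), Tmem237 (0.987), Poc1a (0.986) and H2afz (0.986). Ccne1 encodes cyclin E1, which drives entry into S phase, Aurka a mitotic kinase and Dut the enzyme that keeps uracil out of DNA. Pcna had 0.972, Slbp 0.944 and Mki67 0.876. The hepatocyte marker sum had 0.887 and that of CD8 T cell markers 0.614.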

How the data were processed

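RNA from 15 libraries (26 runs) was quantified by the authors with kallisto, and they deposited estimated counts and TPM per transcript. The kallisto version is not given in the sources used here. Transcripts were matched to GENCODE vM21 (GRCm38) by identifier (116622 matched), and estimated counts were summed per gene and over the runs of a library. Counts were rounded and tested with edgeR 4.0.16 (quasi-likelihood, robust, TMM) in R 4.3.3, on genes with 10 counts in at least 6 libraries, with group and series as terms, the TG or XC prefix of the titles being taken as the series. P-values were adjusted by Benjamini-Hochberg over all genes tested, at a threshold of 0.05. Levels are CPM scaled by TMM over the 15 libraries. DESeq2 1.42.0, other filters and scalings, and leaving out libraries were the alternatives. The script was tested on simulated data. Counting intervals would cover counting error only. The members and lists were chosen with earlier results of these data known. Named members were the 3 highest per class by mean TPM, up to 10 per direction with the largest called change, and the 5 largest rises and falls by oligo-dT, and others are named as examples after their values were seen. The summed level of the B cell marker list is not reported here.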

Additional observations from a re-analysis of the deposited data

How the results depend on the processing

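No paired analysis was possible because replicate numbers were given in accession order and pair no samples. In mid and late liver against control (41 members called), the count ranged from 0 to 40 when single libraries were left out, with 0 only without control replicate 1. In mid liver (34) the range was 0 to 28 and without the series term the count was 21. In late liver (42) the range was 0 to 42. Settings added after seeing the data left out control replicate 1 and the series term together (0, 19 and 25 called in mid, late, and mid and late) or kept the XC series only (0 in each). In early liver against control (0 called), no count filter gave 21 (5.02% of all genes) and DESeq2 8, and the range was 0 to 21 without single libraries. Without the count filter, 2 members were called in late against mid liver, 3 in undivided, 6 in early spleen, 13 in early liver against early spleen and 8 in mid liver against mid spleen, each against 0, where 434, 328, 642, 984 and 758 of all genes were called. DESeq2 gave 1 in either of the last pair of comparisons, and the early liver against early spleen count ranged from 0 to 3 without single libraries. The summed level (3.30 on the log2 scale) was 2.34 without members sharing most of their words and 2.26 without Hist1h2ap, the latter added after seeing the data. The oligo-dT median (−1.20) was −2.12 with 10 counts in either library and −0.13 against the other day 0 library.

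Of 552 alternatives for named members, 454 kept direction and side of the threshold, 77 lost the call, 4 gained one and 17 changed sign, none of these 17 for a called member. For Hist1h1c (−0.06) leaving out single libraries gave −0.35 to 0.24, with 0.24 without control replicate 1, 0.06 without control replicate 2, 0.0020 without mid replicate 1 and 0.07 without late replicate 1. It was 0.45 without control replicate 1 and the series term, 0.24 in the XC series and 0.25 by DESeq2 without control replicate 1. Hist1h4m (−2.28) ranged from −5.55 to 0.70 without single libraries, and had 0.70 with day 0 controls only, which is also the fit without control replicate 3. Hist2h3c1 (0.16) ranged from −0.45 to 0.68, with −0.45 without control replicate 1, −0.32 without mid replicate 1, −0.17 without late replicate 2, −0.46 in the XC series and −0.48 by DESeq2 without control replicate 1. Hist1h2be (0.24) ranged from −0.13 to 0.49, and had −0.13, −0.15 and −0.11 without control replicate 1, in the XC series and by DESeq2 without control replicate 1. The cause was not tested. Reads shared between copies and the low counts of many members limit values of single genes.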
